A study of Rattus norvegicus with 12 samples.

Results

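The genes described here encode 9 structural proteins of the myelin sheath that oligodendrocytes wrap around axons. They are *Mbp*, *Mobp*, *Mal*, *Cldn11*, *Cnp*, *Mag*, *Mog*, *Opalin* and *Ermn*, chosen by name from a fixed list, and all 9 of 9 were found among the 37209 genes of the count table. They were measured by poly-A RNA-Seq in tissue punches of the central nucleus of the amygdala (CeA) from 12 wild type Sprague Dawley rats, labelled 14 to 16 weeks old, with 1 library per rat. The 6 rats of the CIE group (rats 1 to 6) had inhaled chronic intermittent ethanol vapor and were sampled immediately at the end of their last exposure. The 6 rats of the Control group (rats 7 to 12) were treated in the same way with air alone. The study used male rats only. The sample titles carry "CIE" for all 12 rats, so groups were taken from the treatment label. The numbers run from the CIE group into the Control group, and an effect of that order cannot be told apart from CIE.

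Myelin is built from many turns of oligodendrocyte membrane. In compact myelin the cytoplasmic faces are held together by basic proteins, and at the edges of each turn the membrane opens into cytoplasm-filled loops, which attach to the axon at the paranodes beside the nodes of Ranvier. The sheath insulates axons and speeds conduction, and these genes are switched on together when an oligodendrocyte matures, under transcription factors that include *Sox10* and *Myrf*. A punch of tissue holds all cell types, so fewer oligodendrocytes and less RNA per oligodendrocyte cannot be told apart in these counts.

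Promoter sequences are shown because the levels of the 9 genes varied together from rat to rat. RefSeq promoter windows on the GRCr8 build, which reach from 250 bases before to 50 bases after a transcription start, were found for 7 of the 9 genes, and *Mbp* has 2 windows for its 2 start sites. *Mog* and *Ermn* had no entry. The 250 bases before the start are printed below for *Cldn11* (chr2:114149540-114149789, minus strand), *Cnp* (chr10:86011254-86011503, plus strand), *Mal* (chr3:135341424-135341673, minus strand) and *Mag* (chr1:95291045-95291294, minus strand), the 4 members with the smallest p values, 5′ to 3′ in the direction of the gene. Capitals mark matches on either strand to ACAAAG, the core of SOX factor sites, to CTGGNAC, the core of MYRF sites, and to CAGCTG, an E-box that reads the same on both strands.
Cldn11: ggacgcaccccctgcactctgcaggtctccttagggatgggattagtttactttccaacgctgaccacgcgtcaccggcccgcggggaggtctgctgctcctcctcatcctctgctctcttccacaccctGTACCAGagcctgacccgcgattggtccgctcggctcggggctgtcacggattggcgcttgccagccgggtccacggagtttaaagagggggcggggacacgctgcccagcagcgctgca
Cnp: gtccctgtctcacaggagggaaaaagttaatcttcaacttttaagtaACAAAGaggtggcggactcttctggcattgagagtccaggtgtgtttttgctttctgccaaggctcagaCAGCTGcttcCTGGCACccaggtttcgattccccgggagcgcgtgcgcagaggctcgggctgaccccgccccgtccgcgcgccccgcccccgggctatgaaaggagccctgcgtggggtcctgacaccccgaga
Mal: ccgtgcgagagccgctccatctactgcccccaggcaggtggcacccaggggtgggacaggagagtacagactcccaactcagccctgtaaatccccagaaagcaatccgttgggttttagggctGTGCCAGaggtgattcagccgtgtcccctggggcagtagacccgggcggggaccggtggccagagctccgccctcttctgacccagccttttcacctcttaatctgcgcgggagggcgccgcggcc
Mag: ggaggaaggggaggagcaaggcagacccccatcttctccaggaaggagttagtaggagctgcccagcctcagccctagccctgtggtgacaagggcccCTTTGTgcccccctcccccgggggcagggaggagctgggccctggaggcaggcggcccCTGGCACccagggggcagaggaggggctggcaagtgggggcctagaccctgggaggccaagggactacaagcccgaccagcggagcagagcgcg
CTGGNAC was present in all 4 of these windows, and *Cnp* held all 3 motifs. Over the 8 member windows of 300 bases, 6 held CTGGNAC, 5 held ACAAAG and 3 held CAGCTG. Among all 33469 windows the shares were 18.2%, 18.8% and 15.1%. The *Mobp* window held 8 matches to ACAAAG, more than any other member. A match describes the letters only. No binding was measured.

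All 9 genes had a lower mean with CIE (49.7% of all genes tested were lower at any p value). In edgeR's quasi-likelihood F test 8 of 9 passed the nominal threshold of p below 0.05, which the study used for its DEGs beside 5% FDR. None of the 9 passed 5% FDR in this test across the 20944 genes tested. With DESeq2, the tool of the study, *Cldn11* and *Cnp* did (0.93% of the 29452 genes with any count). Of all genes tested with edgeR, 8.31% passed the nominal threshold (4.31% lower and 4% higher with CIE), and 0.363% passed 5% FDR in either direction. The median log2 fold change (log2FC, CIE to Control) of the 9 genes was -0.56 (range -0.77 to -0.33), against 0.00096 over all genes tested, and 2.48% of all genes had a log2FC at or below -0.56. Among the 2887 genes at least as abundant as the scarcest member (mean of 83.2 CPM, counts scaled to equal library size with TMM normalization), the median was -0.01 and 4.40% were lower at the nominal threshold. The members are not independent of each other, since all were read from the same 12 libraries, and every p value measures the spread between these rats only. The paper states that the rats were group housed. Cages were not part of any fit, so the p values treat each rat as independent. Counts per gene and rat lay between 2682 and 629393. The counting error at the lowest of these was 1.93%, well below the spread between rats, which was 26.7% to 39.4% (coefficient of variation) with CIE and 17.9% to 22.7% with air.

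Compact myelin depends on *Mbp*, myelin basic protein, which holds the cytoplasmic faces of the membrane together. *Mbp* ranged from 2388 CPM over a median of 3345 to 5779 under CIE and from 3342 over a median of 5179.6 to 6546 with air. The ranges overlapped, with 3 of 6 CIE rats below every Control rat and 5 of 6 below the Control median. The log2FC was -0.54 (SE 0.20, edgeR nominal p 0.0167, FDR 0.450), and the difference in mean log2 CPM had a two-sided exact permutation p of 0.0390. The count pools all transcripts of the gene, including those from its other promoter. *Mobp*, a second small basic protein of compact myelin, ranged from 608 CPM over a median of 1060.1 to 1657 under CIE and from 1009 over 1499 to 1720 with air. Its log2FC was -0.44 (SE 0.20, edgeR nominal p 0.0462, FDR 0.592), with 2 of 6 CIE rats below every Control rat (exact permutation p = 0.0714). *Mobp* was the member nearest to the nominal threshold among those that passed it.

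*Mal* encodes a small proteolipid that carries membrane cargo to the sheath, and *Cldn11* the claudin that forms the tight junctions between its turns. *Mal* ranged from 182 CPM over a median of 233 to 358 under CIE and from 241 over 355 to 459.8 with air. The log2FC was -0.56 (SE 0.17, edgeR nominal p 0.00487, FDR 0.279, exact permutation p = 0.0216), and 4 of 6 CIE rats were below every Control rat. *Cldn11* had the largest difference of the 9 genes. It ranged from 157 CPM over a median of 248 to 355 under CIE and from 277 over 433 to 494 with air. The means were 239 ± 73.6 CPM (SD, n = 6) and 408 ± 79.9 CPM (SD, n = 6), log2FC -0.77 (SE 0.19, edgeR nominal p 0.00129, FDR 0.153). Of the CIE rats, 5 of 6 lay below every Control rat (exact permutation p = 0.00649).

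*Cnp* and *Mag* belong to the cytoplasm-filled parts of the sheath. *Cnp* encodes the enzyme 2′,3′-cyclic nucleotide phosphodiesterase, which keeps cytoplasmic channels open, and *Mag* a lectin on the innermost membrane that faces the axon. *Cnp* ranged from 349 CPM over a median of 500.2 to 749.7 under CIE and from 567 over 765 to 989.6 with air. The log2FC was -0.64 (SE 0.17, edgeR nominal p 0.00229, FDR 0.188), and again 5 of 6 CIE rats were below every Control rat (exact permutation p = 0.00649). *Mag* ranged from 172 CPM over a median of 257 to 398 under CIE and from 243 over 394 to 498 with air. Its log2FC was -0.60 (SE 0.20, edgeR nominal p 0.00940, FDR 0.366, exact permutation p = 0.0325), with 2 of 6 CIE rats below every Control rat.

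*Mog*, an immunoglobulin-domain protein of the outermost surface of the sheath, ranged from 71.3 CPM over a median of 105 to 156 under CIE and from 97.3 over 148 to 169 with air (log2FC -0.43, SE 0.17, edgeR nominal p 0.0255, FDR 0.510, exact permutation p = 0.0519). *Opalin*, a transmembrane glycoprotein of the paranodal loops, ranged from 69.5 CPM over a median of 107 to 196 under CIE and from 123 over 175 to 222 with air. The log2FC of *Opalin* was -0.59 (SE 0.21, edgeR nominal p 0.0153, FDR 0.440, exact permutation p = 0.0325). Below every Control rat were 4 of 6 CIE rats for *Opalin* and 2 of 6 for *Mog*. *Ermn*, an actin-binding protein of the late mature oligodendrocyte also called juxtanodin, was the member that missed the nominal threshold. It ranged from 41.5 CPM over a median of 70.5 to 126 under CIE and from 63.9 over 92.8 to 122 with air. CIE rat 6 had the highest *Ermn* value of all 12 rats, and 2 of 6 CIE rats were below every Control rat. Its log2FC was -0.33 (SE 0.22, edgeR nominal p 0.151, FDR 0.749, exact permutation p = 0.152).

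**Figure D1:**
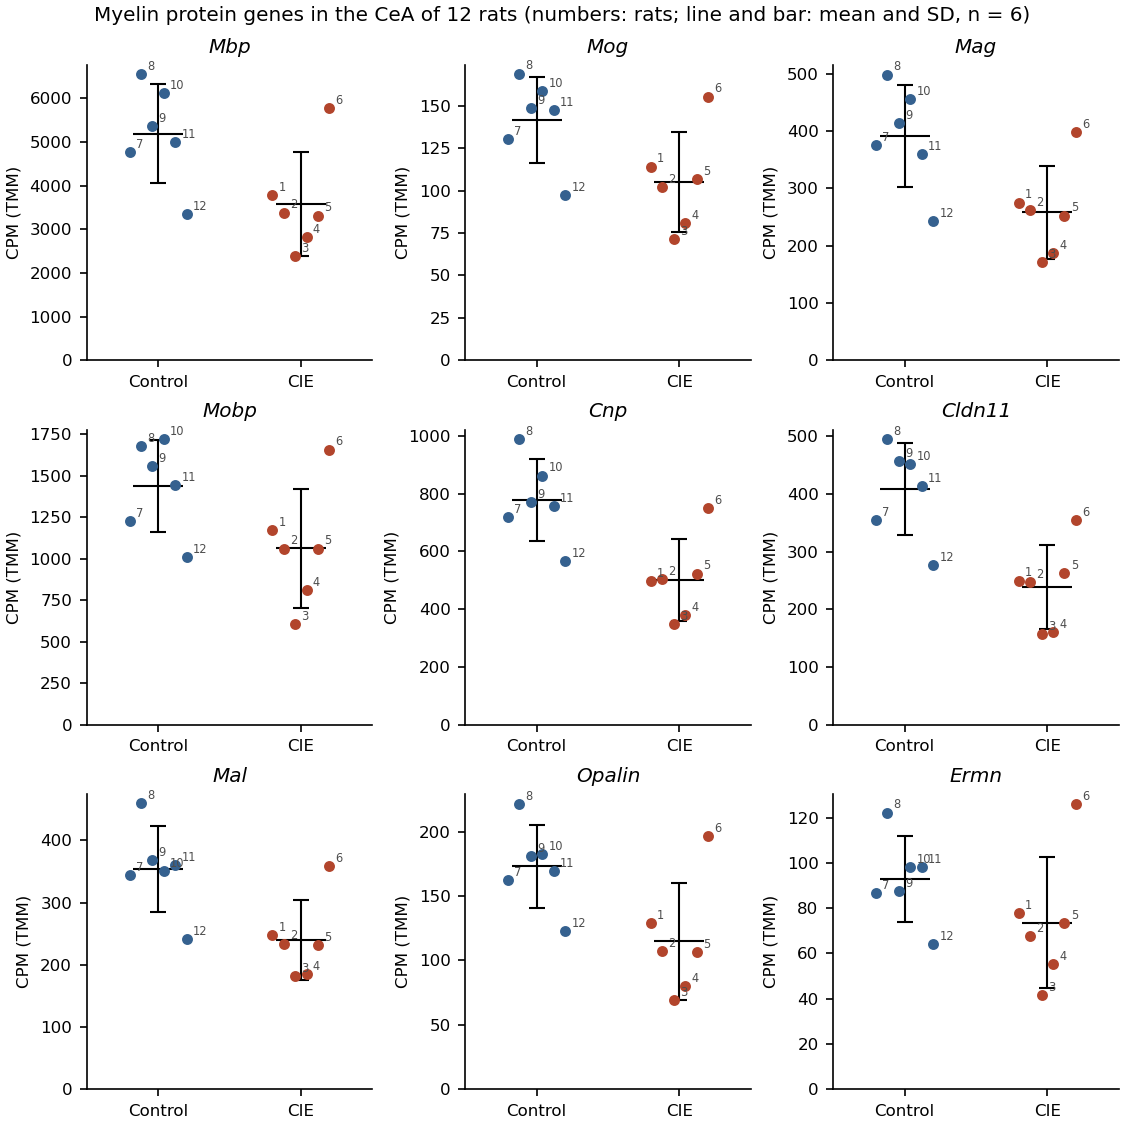
CPM with TMM normalization of the 9 genes in each rat (points, numbered by rat), with the mean and SD of 6 rats per group, each axis starting at 0. CIE rat 6 is the highest CIE rat and Control rat 12 the lowest Control rat in all 9 panels.

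The same rats were high and low in every gene. CIE rat 3 was the lowest of 12 rats and CIE rat 4 the next lowest in 9 of 9 genes. CIE rat 6 was the highest CIE rat in 9 of 9, and Control rat 12 the lowest Control rat in 9 of 9. Control rat 8 was the highest of all rats in 7 of 9. Control rat 12 lay below CIE rat 6 in all 9 genes, so the groups overlapped in 9 of 9, and 0 of 9 genes were without overlap (0.893% of all genes tested). With both of these rats set aside the remaining 5 and 5 rats did not overlap in 9 of 9 genes, a description of rats chosen for their values and no test. Leaving out the highest CIE rat and the lowest Control rat moves the groups apart by construction. The share over all genes was not computed for the remaining rats. Together the 9 genes took from 0.417% (CIE rat 3) to 1.01% (CIE rat 6) of all counts under CIE and from 0.603% (Control rat 12) to 1.12% (Control rat 8) with air.

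Pairs of the 9 genes correlated over the 12 rats with a median Pearson's r of 0.97 on log2 CPM (range 0.88 to 0.99 over 36 pairs). With group means removed the median was 0.96 (0.90 to 0.98). Within the 6 CIE rats it was 0.98 and within the 6 Control rats 0.96. The lowest value of the 36 was that of *Cldn11* with *Ermn* (0.88). These values are given as a description, since the points share library, depth and punch.

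**Figure D2:**
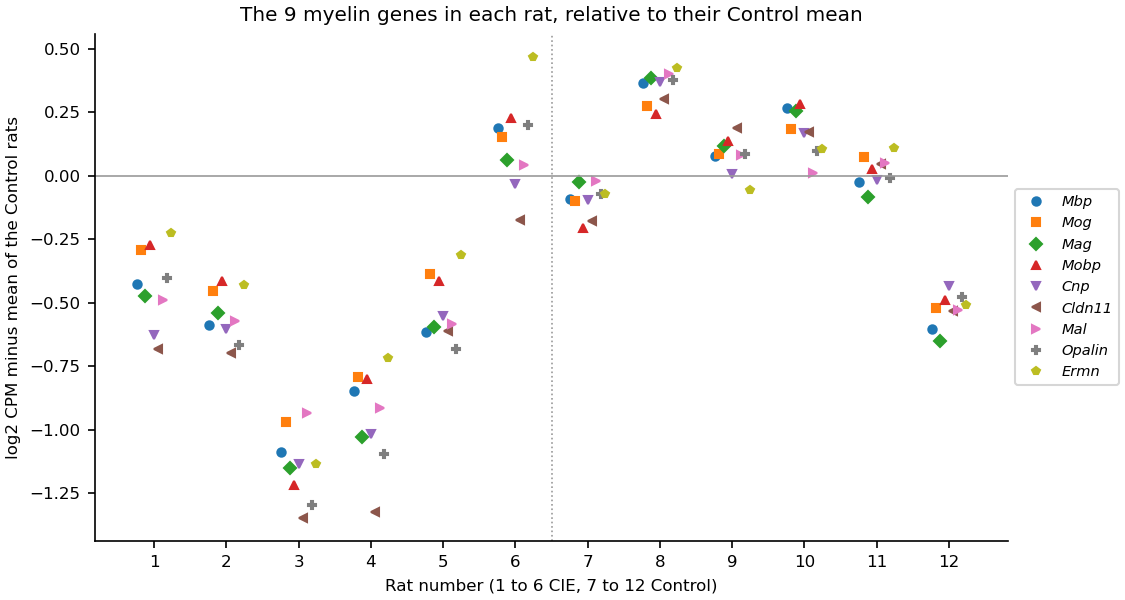
Log2 CPM of the 9 genes in each rat minus the gene's mean over the 6 Control rats (rats 1 to 6 CIE, 7 to 12 Control). The 9 symbols of a rat lie close together, lowest in CIE rat 3, and those of CIE rat 6 lie among the Control rats.

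The genes most like the 9 were sought among 16882 genes with a mean of at least 1 CPM, by Pearson's r with the members' mean log2 CPM over 12 rats after group means were removed. Among the 10 highest were *Enpp2* (0.99), *Sept4* (0.98), *Gltp* (0.98), *Pllp* (0.98), *Tmem125* (0.98), *Adamts4* (0.98), *Ugt8* (0.98), *Fa2h* (0.98) and *S1pr5* (0.98). Of these 10, 8 were lower with CIE at the nominal threshold in the edgeR test (background 4.31%), and 1 passed 5% FDR. This was *Adamts4*, a secreted metalloproteinase, which fell from 45.0 CPM with air to 20.1 CPM with CIE (log2FC -1.16, SE 0.22, edgeR FDR 0.0368). It remained below 5% FDR in 3 of 12 fits without a rat (CIE rat 3, CIE rat 6 or Control rat 12), and its FDR was up to 0.0976, without Control rat 8, and 0.113 with the cortical and striatal covariates. *Sept4* (log2FC -0.20, nominal p 0.262) and *S1pr5* (-0.15, nominal p 0.477) did not pass with all 12 rats. Both passed without CIE rat 6 (*Sept4* -0.36, nominal p 0.0200, and *S1pr5* -0.37, nominal p 0.0286).

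Because the 9 genes share the spread between rats, ratios of their counts within a library vary less and do not depend on normalization. These ratios were examined after the levels had been seen and are given without a test. In 5 of 36 pairs of members the log2 ratios of the CIE and Control rats did not overlap. The share was 0.707% of all pairs among the 2887 genes at least as abundant as the scarcest member. Those pairs were not chosen to vary together as the members do, so the shares are not a like comparison. *Cldn11* took part in 3 of the 5 pairs. The log2 ratio of *Cldn11* to *Ermn* was 1.49 to 1.93 with CIE and 2.02 to 2.38 with air, a difference in means of -0.41. The ratio of *Mog* to *Cldn11* was -1.29 to -0.99 with CIE and -1.62 to -1.44 with air, and that of *Mobp* to *Cldn11* was 1.95 to 2.34 against 1.76 to 1.93. The other pairs were *Mog* to *Cnp* (difference in means 0.20) and *Opalin* to *Ermn* (-0.26).

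*Myrf*, the transcription factor that keeps myelin genes on in mature oligodendrocytes, ranged from 82.7 CPM over a median of 126 to 239 under CIE and from 113 over 148 to 177 with air. Its log2FC was -0.03 (SE 0.20, edgeR nominal p 0.873), and CIE rat 6 was again the highest. Without CIE rat 6 the log2FC of *Myrf* was -0.24 (nominal p 0.131), and it was above 0 without CIE rat 3 (0.09), CIE rat 4 (0.01), CIE rat 5 (0.01) or Control rat 8 (0.04), so the level of *Myrf* relative to Control depended on single rats. The log2 ratio of *Opalin* to *Myrf* was -0.58 to -0.16 with CIE and 0.12 to 0.32 with air. That of *Mbp* to *Myrf* was 4.51 to 4.85 against 4.88 to 5.37. In 5 of 9 members the ratio to *Myrf* did not overlap between the groups, namely *Mbp*, *Mag*, *Cnp*, *Cldn11* and *Opalin*, each lower with CIE. Among the 2886 genes at least as abundant as the scarcest member, members included, 14 (0.485%) had a ratio to *Myrf* without overlap. Of these, 9 are not members, among them *Tspan2*, *Ugt8*, *Serinc5*, *Lpar1*, *Hba2*, *Hbb*, *Gpd1* and *Sgk1*, of which *Gpd1* and *Sgk1* were higher relative to *Myrf*. The 2886 genes were not chosen to vary with *Myrf* from rat to rat, so the shares of members and of all these genes are not a like comparison. Since these 5 ratios were picked for not overlapping, CIE rat 6 and Control rat 12 lay on the side of their own groups by that choice.

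**Figure D3:**
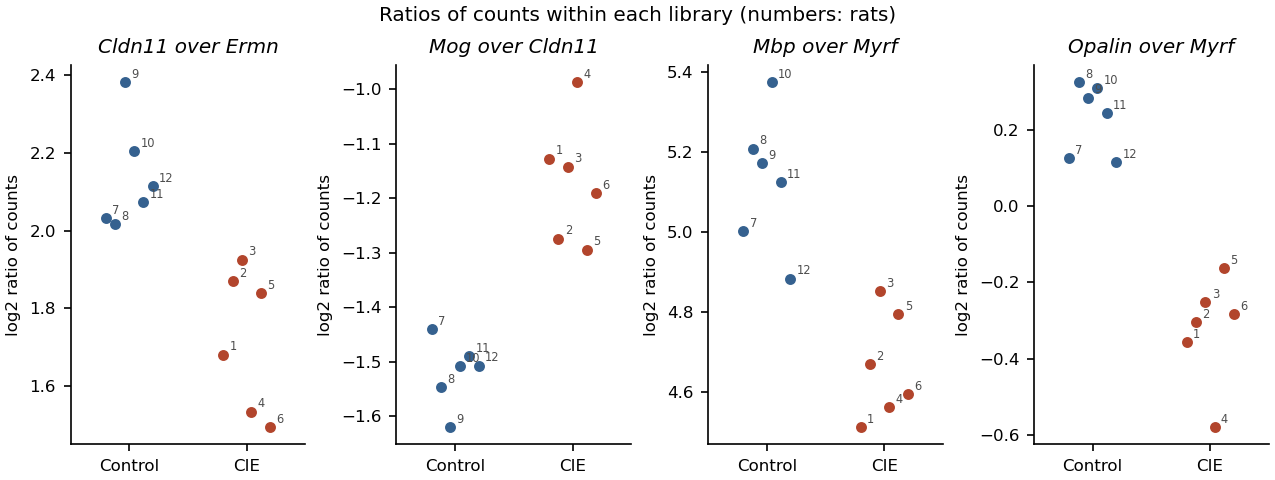
Log2 ratios of raw counts within each library (points, numbered by rat) for *Cldn11* over *Ermn*, *Mog* over *Cldn11*, *Mbp* over *Myrf* and *Opalin* over *Myrf*. The 6 CIE and 6 Control rats do not overlap in any of the 4 panels, which were chosen for this, and the axes do not start at 0.

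Other proteins of the sheath and its oligodendrocyte were taken from a list of 18 genes, of which 16 were tested. *Omg* and *Evi2a* are listed at 0 counts in every rat. In all, 8 of 16 were lower with CIE at the nominal threshold (background 4.31%), 0 were higher, and 1 passed 5% FDR, with a list median log2FC of -0.46. *Sirt2*, a deacetylase abundant in the sheath, fell from 239.7 ± 20.9 CPM (SD, n = 6) with air to 170.1 ± 22.5 CPM (SD, n = 6) with CIE, log2FC -0.50 (SE 0.09, edgeR FDR 0.0300), without overlap of the groups. With a rat left out *Sirt2* was below 5% FDR in 2 of 12 fits, without CIE rat 6 (0.0105) or Control rat 12 (0.0264). Its highest FDR was 0.0948, without Control rat 9, and it was 0.0869 with the cortical and striatal covariates. *Cd9*, a tetraspanin, had log2FC -0.55 (nominal p 0.00314, FDR 0.221). *Hapln2*, a link protein of the perinodal matrix, went the other way at 79.6 ± 32.4 CPM against 61.8 ± 15.1 CPM and did not pass the nominal threshold (log2FC 0.36, nominal p 0.159). The log2FC of *Hapln2* was 0.14 without CIE rat 6 and 0.50 without CIE rat 3, where it passed (nominal p 0.0440).

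Enzymes that make the lipids and metabolites of myelin were also mostly lower. Of 11 listed, 10 were tested, and 8 of 10 were lower at the nominal threshold (background 4.31%) with a list median of -0.49. *Elovl7* is listed at 0 counts. *Ugt8*, which makes the galactosylceramide of myelin, was at 96.7 ± 31.2 CPM (SD, n = 6) with CIE and 188 ± 39.9 CPM (SD, n = 6) with air, log2FC -0.96 (SE 0.20, edgeR FDR 0.0727), larger than that of any member. *Gamt*, an enzyme of creatine synthesis, had log2FC -0.49 (SE 0.10, edgeR FDR 0.0475), which stayed below 5% in 2 of 12 fits without a rat, CIE rat 6 (0.0153) or Control rat 7 (0.0455). It was 0.154 without Control rat 8, 0.162 with the cortical and striatal covariates, 0.0880 with library size only and 0.0554 with DESeq2 size factors. *Elovl1*, which lengthens very long chain fatty acids, had log2FC -0.62 (edgeR FDR 0.113).

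The partners of the paranodal loop on the axon and at the node lay near 0 as a list. Of 14 such genes 1 was lower at the nominal threshold (background 4.31%) and 0 were higher, with a list median of -0.04. The gene was *Nfasc* (log2FC -0.34, SE 0.14, edgeR nominal p 0.0270, FDR 0.517), which encodes both the glial neurofascin of the paranode and the neuronal form at the node, not separated by these counts. *Scn8a*, the sodium channel of the node, had log2FC 0.15 (nominal p 0.278), and *Epb41l3*, a scaffold of the paranode, had -0.09 (nominal p 0.363), and both signs turned with the cortical and striatal covariates (-0.02 and 0.0042). *Scn8a* passed the nominal threshold as higher with limma-voom (0.27, nominal p 0.0182) and without CIE rat 3 (0.24, nominal p 0.0262). *Nfasc* missed it without CIE rat 3, CIE rat 4 or Control rats 7, 8 or 9 (nominal p 0.0510 to 0.0762).

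Of 10 transcription factors of the oligodendrocyte lineage, 5 were lower at the nominal threshold (background 4.31%) and 0 higher, with a list median of -0.34, and 0 passed 5% FDR. The smallest p values were those of *Zfp488* (log2FC -0.85, SE 0.18, edgeR FDR 0.0621), *Nkx6-2* (-0.58, FDR 0.169) and *Nkx2-2* (-0.61, FDR 0.169). *Sox10*, which defines the lineage, was at 71.8 and 87.4 CPM in the CIE and Control groups (log2FC -0.28, nominal p 0.0580). Among precursor and newly formed oligodendrocyte genes, 9 of 10 were tested and 1 was lower at the nominal threshold (background 4.31%), with a list median of -0.13. This was *Enpp6*, a marker of newly formed oligodendrocytes, from 3.23 CPM over a median of 5.84 to 7.60 with CIE and from 7.18 over 8.96 to 12.5 with air (log2FC -0.72, SE 0.19, edgeR FDR 0.182). *Pdgfra*, the growth factor receptor of precursors (log2FC -0.17, nominal p 0.104), and *Ptprz1* (-0.13, nominal p 0.118) did not pass. *Gpr17* is listed at 0 counts. Without CIE rat 6, 8 of the 10 transcription factors and 4 of the 9 precursor and newly formed genes passed the nominal threshold, as did 9.26% of all genes in that fit. Among them were *Sox10* (log2FC -0.41, nominal p 0.00259), *Pdgfra* (-0.24, nominal p 0.0172) and *Ptprz1* (-0.18, nominal p 0.0201).

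Markers of other cells were measured in the same libraries. For Schwann cells, which share several of these proteins, the 5 tested of 7 markers summed to 8.97 to 16.8 CPM with CIE and 11.8 to 16.1 with air. Of 10 pan-neuronal markers 1 was lower at the nominal threshold, and their sum was 4602 to 5029 CPM with CIE against 4578 to 5113. Of 10 cortical glutamatergic markers, which mark tissue beyond the CeA, 0 were lower and 2 higher at the nominal threshold, with sums of 189.7 to 583 CPM with CIE and 167 to 358 with air. All 10 had a positive log2FC, with a list median of 1.03. *Slc17a7*, among these, was at 130.1 ± 139 CPM with CIE and 32.3 ± 50.3 CPM with air (SD, 6 rats each; log2FC 2.01, SE 1.10, edgeR nominal p 0.0901). *Slc17a7* was high in CIE rats 1 (348 CPM), 2 (161 CPM) and 4 (223 CPM) and in Control rat 10 (130.1 CPM), and between 3.66 and 43.3 CPM in the other rats. Its log2FC was 1.42 without CIE rat 1 and 3.34 without Control rat 10 (nominal p 0.00837). Sums of the 10 striatal markers were 653 to 4584 CPM and 393 to 4901 CPM, 0 of them past the nominal threshold, and those of 5 thalamic markers were 73.6 to 138 and 91.1 to 161 CPM, 0 past it. Like the members' sum, the thalamic sum was lowest in CIE rat 3 and highest in Control rat 8, with CIE rat 6 the highest CIE rat. Other rats differed from the members' order. Control rat 12, the lowest Control rat in the members, had a thalamic sum of 111 CPM. CIE rats 1 and 4 had thalamic sums of 114 and 108 CPM, above those of Control rats 7, 9, 10 and 11 (91.1 to 94.7 CPM). The CeA itself was represented by 11 tested markers summing to 1969.9 to 3523 CPM and 2138 to 4036 CPM, 2 of them lower (*Crh* and *Nts*). The CeA sum was lowest in CIE rat 6 and, among Control rats, in Control rat 8, and was 3071 CPM in CIE rat 3. It was highest in Control rat 10 (4036 CPM), where the members' sum was also high (10394 CPM). In Control rat 12, the lowest Control rat in the members, the CeA sum was 2484 CPM. Of 10 astrocyte markers 2 were lower and 1 higher, of 10 microglial markers 1 was lower, and of 9 tested endothelial markers 5 were lower and 1 higher at the nominal threshold. The background for all these marker counts was 4.31% lower and 4% higher. The endothelial list had a median log2FC of -0.29, and 1 of its markers was lower at 5% FDR without overlap of the groups. In a fit with covariates for cortical and striatal markers, 8 of 9 members passed the nominal threshold (8.46% of all genes), with log2FC values of -0.77 to -0.38. Thalamic and CeA markers were not covariates in this fit. The part of any of these markers in the members' differences was not tested beyond this fit.

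Single rats moved the members' calls. Without CIE rat 6, 9 of 9 members passed the nominal threshold and 4 of 9 passed 5% FDR, namely *Cnp* (FDR 0.0260), *Cldn11* (0.0322), *Mal* (0.0370) and *Opalin* (0.0452), with a median log2FC of -0.72, while in that fit 9.26% of 21093 genes passed the nominal threshold and 0.73% passed 5% FDR. Without CIE rat 3, CIE rat 4, Control rat 8 or Control rat 10, 6 of 9 passed the nominal threshold, at which 13.3%, 6.58%, 6.47% and 11.4% of all genes passed in the same 4 fits. *Cldn11*, *Cnp*, *Mal*, *Mag*, *Opalin* and *Mbp* passed it in all 12 fits that left out a rat, *Mog* in 8 (not in the 4 fits just named), *Mobp* in 3 (without CIE rat 6, Control rat 7 or Control rat 12) and *Ermn* in 1 (without CIE rat 6). DESeq2 and limma-voom with sample quality weights, on all 12 rats, each placed *Cldn11* and *Cnp* below 5% FDR (*Cldn11* at 0.0104 and 0.0334, *Cnp* at 0.0305 and 0.0361). DESeq2 placed 0.93% of the 29452 genes with any count below 5% FDR, and limma-voom 1.12% of the 20944 genes left by the filter. The 2 shares have different bases and are not a like comparison.

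**Figure D4:**
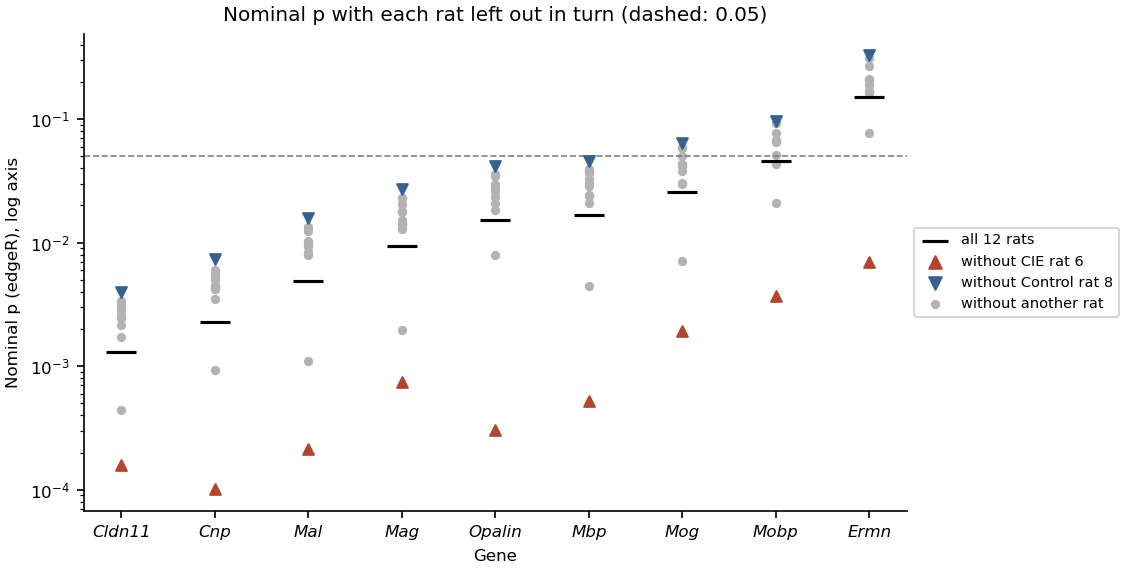
Nominal edgeR p value (log axis) of each gene with all 12 rats (black bar) and in the fits without a rat (symbols), the dashed line at 0.05. Leaving out CIE rat 6 gives the lowest p value of each gene.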

How the data were processed

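Each library held poly-A RNA punched from the CeA of 1 rat, and RNA integrity was high per the labels. BWA alignments to Rnor_6.0 were counted by the authors in HTSeq, and the deposited values are raw counts for every annotated gene. Strand and overlap settings and the annotation release are not given in the sources used here. The submitters' processing notes also name DESeq2 1.26. Totals lay between 61978486 and 78441691 counts (CIE) and between 39082548 and 95647601 (Control).

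Counts were compared with edgeR 4.0.16 (R 4.3.3) by the quasi-likelihood F test, two-sided, with TMM normalization, filterByExpr and no covariates, and Benjamini-Hochberg FDR over all 20944 genes. The test was checked on simulated data. SE is the size of the log2 fold change over the square root of F. Exact permutation tests of 6 against 6 rats cannot give a p below 0.00216. Alternatives changed the normalization, the filter on low counts, the covariates (marker scores or 1 surrogate variable, sva 3.50.0) and the test (DESeq2 1.42.0, limma 3.58.1), or left out each rat. Python 3.11.15 was used for the rest. Transcript lengths were not used here. Levels of different genes were compared only as CPM, to pick the genes at least as abundant as the scarcest member or above a minimum level.

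The 9 members and all lists were chosen with earlier results of these data known. Named are the 9 members, the 3 smallest p values of each of 5 lists, and the 10 genes most alike to the members. *Myrf*, *Hapln2*, *Sox10*, *Slc17a7* and the ratios were singled out after their values were seen. Of the marker lists, *Tac2* and *Slco1a4* were not found under these symbols. Some listed genes are not reported here by name.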

Additional observations from a re-analysis of the deposited data

How the results depend on the processing

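All 9 members had a negative log2 fold change in each of the 20 alternatives, 8 of other settings and 12 that left out a rat, and their median lay between -0.72 and -0.46. The number of members at a nominal p value below 0.05, 8 with all rats, was 6 to 9 with a rat left out and 7 to 9 otherwise, *Mobp* missing the threshold with library size only (log2 fold change -0.42, p 0.0558). The number at 5% FDR, 0 with all rats, was 0 to 4 with a rat left out and 2 with DESeq2 and with limma-voom. Over all genes the count at 5% FDR, 76, was 274 with DESeq2, 234 with limma-voom, 45 with cortical and striatal scores as covariates and 34 to 154 with a rat left out, and the count at a nominal p value below 0.05, 1740, was 3596 with limma-voom and 1347 to 2811 with a rat left out. The number of paranode and node genes past the nominal threshold, 1, was 2 with limma-voom and 0 to 2 with a rat left out, 0 without CIE rat 4 or Control rats 7, 8 or 9 and 2 without CIE rat 3. That of precursor and newly formed genes, 1, was 3 with limma-voom and 1 to 4 with a rat left out, and that of transcription factors, 5, was 5 to 8. *Scn8a* (-0.0238) and *Epb41l3* (0.0042) turned in sign under those covariates. Of 460 values of 23 other genes under the alternatives, 411 kept direction and side of the threshold, 39 lost the call, most of them *Gamt*, *Sirt2* and *Adamts4*, and 8 gained one. *Gamt*, *Sirt2* and *Adamts4* were judged at 5% FDR and the other genes at a nominal p value below 0.05. At that nominal threshold *Gamt*, *Sirt2* and *Adamts4* passed in each of the 20 alternatives, with largest edgeR p values of 0.00113, 0.000331 and 0.000422. The cause of the shifts between fits was not tested. The median pairwise r lay between 0.96 and 0.97 with group means removed, on the scale of DESeq2 size factors and with each rat left out, the alternatives run for it. No paired analysis was possible because the groups share no replicate numbers. Depth did not limit the members, whose lowest count was 2682.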
